A study of Mus musculus with 24 samples.

Results

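Bulk RNASeq counts of 10 osteoclast genes were examined in 24 libraries of cultured primary mouse OBs. The genes were chosen by name, as the entries of the deposited tables whose symbol is *Nfatc1*, *Oscar*, *Calcr*, *Dcstamp*, *Ocstamp*, *Itgb3*, *Atp6v0d2*, *Acp5*, *Ctsk* or *Mmp9*, and all 10 were found among 55335 genes. Of these, 9 passed the filter on low counts together with 20434 genes in all, and *Calcr* did not. Cells came from parietal bones of 4- to 5-day-old pups that were either WT C57BL/6J or Het for G610C, a glycine-to-cysteine substitution in the α2(I) chain of procollagen encoded by *Col1a2* (allele Col1a2tm1Mcbr), kept on the C57BL/6J background. All cultures of both genotypes were kept in αMEM with serum and ascorbic acid 2-phosphate, labelled as osteogenic differentiation, and RNA was taken on day 8, day 14 or day 21 of culture, with 4 replicates per genotype and day. Each plating mixed cells from more than 1 pup of a genotype, so replicates can share animals, and p-values measure the spread between these cultures rather than between animals. The wells that the study's methods describe per genotype and day are fewer than the libraries deposited, so some of the 4 replicates may share a well, and the spread between them may in part be technical. The mutation is a point change, and counts per gene cannot check it.

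Osteoclasts are large cells with several nuclei that form by fusion of monocyte and macrophage precursors and dissolve bone. The cytokine RANKL, displayed by OBs and osteocytes, acts on its receptor RANK in the presence of the growth factor CSF1, and signals from RANK and from immunoglobulin-like co-receptors converge on the transcription factor NFATc1. NFATc1 then switches on genes for cell fusion, attachment to bone, acid secretion and digestion of collagen. The culture medium, as described by the study, lists neither RANKL nor CSF1 as an additive. The examined genes cover each of these steps. Several of them are also transcribed outside osteoclasts: *Ctsk* in fibroblasts and OB-lineage cells, *Mmp9* in many cell types, and *Nfatc1* and *Itgb3* in various lineages. In bulk samples, fewer cells of a type and less RNA per cell cannot be told apart.

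On the mm10 (GRCm38) genome, the receptor genes were *Oscar* at chr7:3609813-3616157 on the minus strand and *Calcr* at chr6:3685680-3764714 on the minus strand. The fusion genes *Dcstamp* and *Ocstamp* lie at chr15:39745930-39760938 on the plus strand and chr2:165393760-165400405 on the minus strand. *Mmp9*, at chr2:164940780-164955850 on the plus strand, is on the same chromosome as *Ocstamp*. *Ctsk* is at chr3:95499256-95509362 on the plus strand, *Atp6v0d2* at chr4:19876841-19922605 on the minus strand, *Acp5* at chr9:22126727-22135711 on the minus strand and *Itgb3* at chr11:104608000-104670476 on the plus strand. The gene *6530413G14Rik* lies across *Acp5* on the opposite strand, and *AC123818.1* overlaps *Nfatc1* on the opposite strand. The strand rule of the counting is not given in the sources used here. Whether reads of *Acp5* and *Nfatc1* were kept apart from those of the overlapping genes is therefore not known.

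Promoter sequences from RefSeq (GRCm38.p6, 250 bases before to 50 after a start) were at hand for 4 of the 10 genes: *Acp5*, *Ctsk*, *Calcr* and *Oscar*, with 7 starts in all. Sequences of *Ctsk*, *Oscar* and the *Acp5* start nearest to the end of the gene are shown because *Ctsk* rose with time in culture while *Oscar* and *Acp5* did not pass the test, and because these 3 genes are known targets of NFATc1. Capitals mark matches, on either strand, to the core letters bound by NFAT factors (TGGAAA, reverse complement TTTCCA) and by PU.1 (GAGGAA, reverse complement TTCCTC), the myeloid factor encoded by *Spi1*. The *Ctsk* window is chr3:95498960-95499259 on the plus strand, the *Oscar* window chr7:3616108-3616407 on the minus strand and the *Acp5* window chr9:22130549-22130848 on the minus strand, all written 5′ to 3′ along the gene.
Ctsk: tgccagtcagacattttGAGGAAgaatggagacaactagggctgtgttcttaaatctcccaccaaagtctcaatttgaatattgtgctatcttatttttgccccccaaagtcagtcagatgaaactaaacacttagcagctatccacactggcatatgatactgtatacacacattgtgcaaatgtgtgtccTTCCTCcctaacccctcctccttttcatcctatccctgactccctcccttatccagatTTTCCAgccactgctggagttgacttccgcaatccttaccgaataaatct
Oscar: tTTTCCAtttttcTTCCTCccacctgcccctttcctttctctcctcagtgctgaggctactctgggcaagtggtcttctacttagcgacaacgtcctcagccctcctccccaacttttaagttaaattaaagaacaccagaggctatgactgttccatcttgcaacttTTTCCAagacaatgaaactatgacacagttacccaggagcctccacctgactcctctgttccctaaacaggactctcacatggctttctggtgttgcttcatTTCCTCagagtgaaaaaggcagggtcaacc
Acp5: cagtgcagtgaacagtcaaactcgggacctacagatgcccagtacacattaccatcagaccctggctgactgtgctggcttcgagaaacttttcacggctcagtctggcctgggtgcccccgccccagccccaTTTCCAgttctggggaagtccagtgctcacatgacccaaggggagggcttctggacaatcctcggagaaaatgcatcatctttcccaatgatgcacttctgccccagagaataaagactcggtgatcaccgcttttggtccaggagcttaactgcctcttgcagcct
The *Ctsk* window held 1 NFAT core and 2 PU.1 cores, and the *Oscar* window held 2 of each. The *Acp5* window held 1 NFAT core and no PU.1 core. The other 2 *Acp5* starts and both *Calcr* starts held neither. Among all 32851 promoters of the same length, 21.4% held the NFAT core and 28.3% the PU.1 core. The AP-1 letters TGANTCA, present in 7.81% of all promoters, were in none of the 7 windows, and no overlap between matches occurred in the sequences shown. These are letter matches only: *Ctsk*, which rose, and *Oscar*, which did not pass the test, held both cores, and the *Acp5* window held the NFAT core alone.

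Totals ranged from 17140202 to 59734231 counts per library, and replicate 1 was shallower (17140202 to 25825762) than replicates 2 to 4 (28159342 to 59734231). The study describes 2 experiments that differed in plating density and early oxygen, but neither the labels nor its text tie a replicate number to an experiment. Replicate 1 stood apart in all 6 groups, and 39.8% of all tested genes were called between replicate 1 and replicates 2 to 4. Replicate 4 lay between them in 4 groups. Among genes with at least a 2-fold gap between replicate 1 and both replicates 2 and 3, the median place of replicate 4 along the way from replicates 2 and 3 to replicate 1 was 26.2% (WT) and 32.4% (Het) at day 8, and 28.7% and 26.8% in WT at days 14 and 21. For Het libraries of day 14 it was 5.57%, and for those of day 21 it was 0.684%. The cause was not tested, and the results below are also given without replicate 1 or replicate 4 where they turn on them. The OB marker *Col1a1* was at or above 16660 counts per 1000 housekeeping counts in all libraries. The sum of all 8 OB markers was lowest in a WT day 8 library, at 17430, so most of that sum was *Col1a1*. Markers of macrophages, from which osteoclasts form, were present in all libraries as well and moved with time and genotype (values below). Defining markers of neutrophils were at or near 0, with no count of *Ly6g* in any library and at most 1 of *Elane* in a library. Of the lymphocyte markers, *Cd3e* and *Cd8a* had at most 1 count in a library and *Cd79a* 2 to 17, whereas *Cd4*, which monocytes can also express, reached 610 counts and a level of 24.2.

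Levels are counts per 1000 housekeeping counts, the latter being each library's geometric mean over the 4 genes that the study normalised to (*Sdha*, *Mrfap1*, *Actb* and *Actg1*). Differences are log2 fold changes from edgeR's quasi-likelihood test on that scale, fitted to all 24 libraries, with Benjamini-Hochberg adjusted p over 20434 genes and a call at 0.05.

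**Figure D1:**
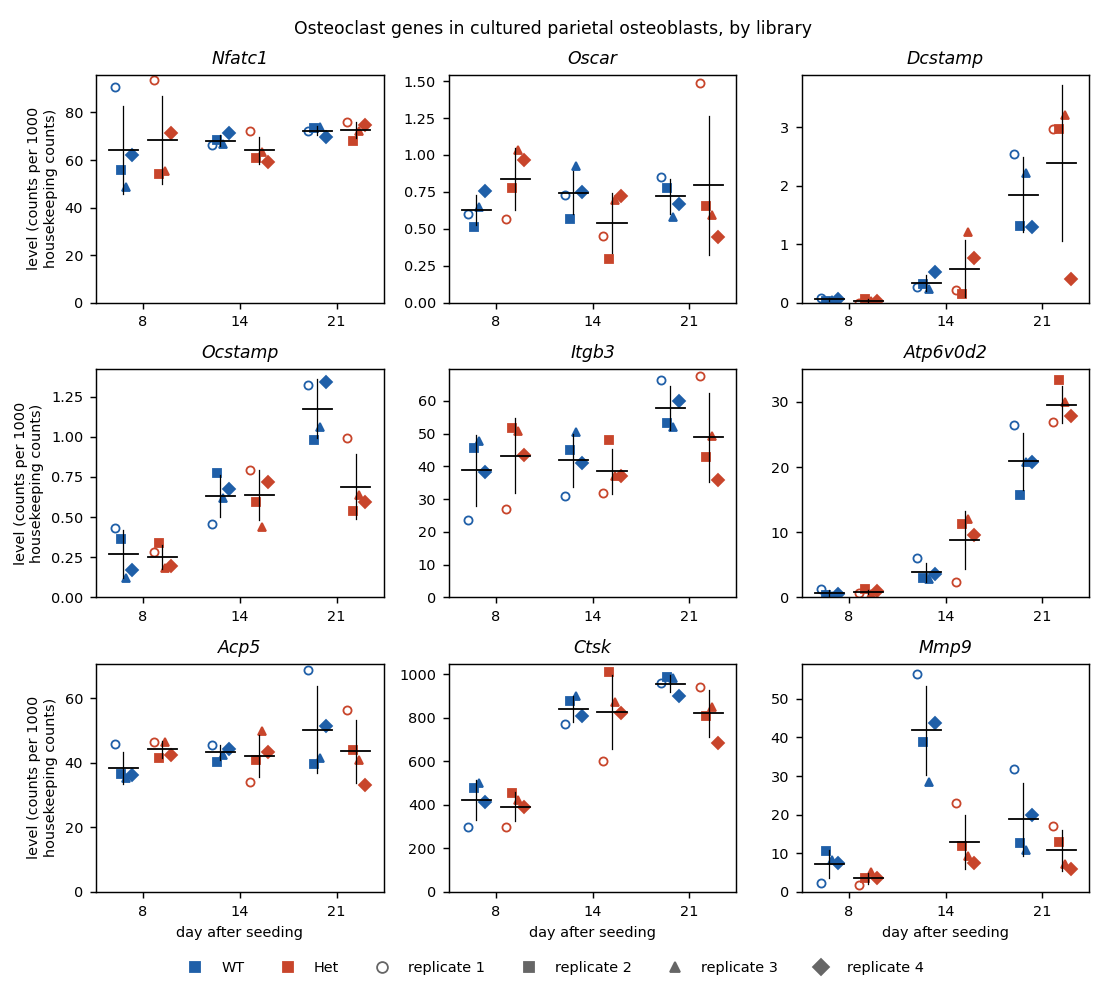
Level of each of the 9 tested genes in each library (y axis, counts per 1000 housekeeping counts, starting at 0) against day after seeding (x axis), with WT in blue, Het in red, open circles for replicate 1, a bar at the mean and a line of 1 SD (n = 4). *Atp6v0d2* and *Dcstamp* climbed at both steps, *Ctsk* climbed once, *Mmp9* peaked at day 14 in WT, and *Nfatc1*, *Oscar* and *Acp5* showed no step that passed the test.

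From day 8 to day 21, the osteoclast genes split into 5 that rose and 4 tested genes that did not pass the test. The fusion genes *Dcstamp* and *Ocstamp*, the proton pump subunit *Atp6v0d2*, the collagen-cleaving protease *Ctsk* and the gelatinase *Mmp9* were higher at day 21 than at day 8, and the same 5 were higher at day 14 than at day 8. *Atp6v0d2* and *Dcstamp* rose again from day 14 to day 21. The transcription factor *Nfatc1*, the co-receptor *Oscar*, the integrin β3 subunit *Itgb3* and the phosphatase *Acp5*, known as TRAP and the classical stain for osteoclasts, had no call in any of the 3 steps. Over all tested genes, 47.6% were called between days 8 and 14 (34.2% higher), 18% between days 14 and 21 (12.1% higher) and 58.3% between days 8 and 21 (40.8% higher). Calls were thus common, and 5 of 9 was near the shares in either direction from day 8 to day 14 and to day 21. All 5 were calls of a higher level, for which the shares of all genes were smaller, at 34.2% and 40.8%. The split of all calls depended on the scale: between days 8 and 21, 8344 genes were higher and 3571 lower, against 5644 and 6673 under TMM scaling, which moved the median of all genes by -0.21 on the log2 scale. Between days 8 and 14 the split was 6995 to 2741, against 4824 to 5446, and between days 14 and 21 it was 2477 to 1203, against 2055 to 2492. The same 5 members were called higher between days 8 and 21 under TMM scaling.

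*Nfatc1* encodes the factor on which RANK signals converge. Its level at day 8 was 90.9, 55.8, 48.7 and 62.1 in WT replicates 1 to 4 and 93.6, 54.0, 55.3 and 71.3 in Het. At day 14 it was 66.5, 68.3, 66.6 and 71.4 (WT) and 72.3, 61.1, 63.6 and 59.4 (Het), and at day 21 it was 72.4, 73.3, 74.0 and 69.6 (WT) and 75.9, 68.2, 72.1 and 74.8 (Het). Replicate 1 was the highest library at day 8 in both genotypes, and days and genotypes overlapped. The difference between day 21 and day 8 was 0.13 on the log2 scale (SE 0.11, adjusted p = 0.326, edgeR), but without replicate 1 it was 0.31 with adjusted p = 0.000399. The direction also depended on the scale, with -0.06 under TMM and -0.18 under total count scaling. Between days 8 and 14 the difference was -0.003 (SE 0.11, adjusted p = 0.988), and without replicate 1 it was 0.17 with adjusted p = 0.0359.

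*Oscar* encodes a collagen-binding receptor of the osteoclast lineage that signals through the Fc receptor γ chain. Its level was low throughout, between 0.298 and 1.48, which corresponded to 4 to 30 counts per library. At day 8 it was 0.6, 0.511, 0.646 and 0.759 in WT replicates 1 to 4 and 0.569, 0.776, 1.03 and 0.969 in Het. Day 14 levels were 0.731, 0.570, 0.926 and 0.747 (WT) and 0.453, 0.298, 0.693 and 0.720 (Het), and at day 21 it was 0.851, 0.776, 0.582 and 0.670 (WT) and 1.48, 0.656, 0.596 and 0.444 (Het). Days overlapped, and so did genotypes at each day. *Calcr*, the calcitonin receptor of mature osteoclasts, gave 4 counts in all, 1 in each of 4 libraries and 0 in the other 20, and was not tested. A count of 0 allows up to 3 counts, or a level of 0.0969 to 0.340 depending on the library, for counting error only. In those 20 libraries, a *Calcr* level under that limit could not be told apart from 0 at this depth.

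*Dcstamp* encodes a membrane protein required for fusion of precursors. Its level at day 8 was 0.0857, 0.0365, 0.0404 and 0.0690 in WT replicates 1 to 4 and 0, 0.0675, 0.0368 and 0.0323 in Het, which rests on 0 to 2 counts per library. At day 14 the level was 0.274, 0.326, 0.231 and 0.533 (WT) and 0.227, 0.149, 1.2 and 0.765 (Het). At day 21 it was 2.55, 1.31, 2.22 and 1.30 (WT) and 2.97, 2.97, 3.22 and 0.407 (Het). All 8 libraries at day 14 lay above all 8 at day 8, as 15.6% of all tested genes did not overlap between these days, while day 21 overlapped day 14 only through Het replicate 4, the library with 11 counts where Het replicates 2 and 3 had 77 and 81. *Dcstamp* had a log2 fold change of 3.20 from day 8 to day 14 (SE 0.53, adjusted p = 3.1e-05) and 2.14 from day 14 to day 21 (SE 0.40, adjusted p = 0.000705).

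*Ocstamp*, whose product acts with DC-STAMP in fusion, was at 0.429, 0.365, 0.121 and 0.172 in WT replicates 1 to 4 at day 8 and at 0.285, 0.337, 0.184 and 0.194 in Het. It was at 0.457, 0.773, 0.617 and 0.675 (WT) and 0.793, 0.596, 0.438 and 0.720 (Het) at day 14. At day 21 it was at 1.32, 0.980, 1.06 and 1.34 (WT) and 0.990, 0.540, 0.635 and 0.592 (Het). The lowest day 14 library was above the highest day 8 library by a small margin, and these levels rest on 3 to 34 counts. *Ocstamp* changed by 1.30 on the log2 scale from day 8 to day 14 (SE 0.25, adjusted p = 0.000152) and by 1.78 from day 8 to day 21 (SE 0.24, adjusted p = 1.73e-06). Het lay below WT in 4 of 4 same-numbered pairs at day 21, with group means of 1.18 ± 0.18 (WT) and 0.689 ± 0.204 (Het, SD, n = 4), and the difference did not pass the test (adjusted p = 0.223, edgeR). Without replicate 1 it did (log2 fold change -0.94, adjusted p = 0.0193).

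*Itgb3* encodes the β3 subunit of the αvβ3 integrin with which osteoclasts attach to bone. Its level at day 8 was 23.8, 45.7, 47.7 and 38.2 in WT replicates 1 to 4 and 26.9, 51.6, 50.7 and 43.5 in Het. At day 14 it was 31.1, 44.9, 50.4 and 41.1 (WT) and 31.8, 48.1, 37.0 and 37.0 (Het), and at day 21 it was 66.4, 53.2, 51.9 and 60.1 (WT) and 67.5, 42.9, 49.4 and 35.9 (Het). Replicate 1 was the lowest library of both genotypes at day 8 and the highest of both at day 21. For *Itgb3* the log2 fold change from day 8 to day 21 was 0.37 (SE 0.16, adjusted p = 0.051), and it was 0.40 from day 14 to day 21 (SE 0.16, adjusted p = 0.0872). With the replicate number as a block both passed the test, with adjusted p = 0.0272 and adjusted p = 0.0483 (edgeR).

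*Atp6v0d2* encodes the d2 subunit of the vacuolar proton pump, enriched in osteoclasts and also made by macrophages, and known for a part in fusion as well as in acid secretion. Its level at day 8 was 1.29, 0.438, 0.242 and 0.483 in WT replicates 1 to 4 and 0.640, 1.25, 0.478 and 0.969 in Het. Day 14 levels were 6.03, 3.01, 2.89 and 3.59 (WT) and 2.38, 11.3, 12 and 9.54 (Het), and at day 21 it was 26.4, 15.6, 20.8 and 20.7 (WT) and 26.9, 33.4, 30.0 and 27.9 (Het). It was the only one of the 9 genes whose 3 days did not overlap with each other at either step, where 2.4% of all tested genes did not overlap between days 14 and 21. The mean level over both genotypes was 34.9 times as high at day 21 as at day 8. Its log2 fold change was 3.09 from day 8 to day 14 (SE 0.31, adjusted p = 4.4e-08) and 2.09 from day 14 to day 21 (SE 0.27, adjusted p = 2.95e-05). Its paralogue *Atp6v0d1*, the d1 subunit made by most cells, had a log2 fold change of 0.32 from day 8 to day 21.

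The phosphatase gene *Acp5* was at 45.9, 36.5, 35.2 and 36.1 in WT replicates 1 to 4 and at 46.5, 41.5, 46.5 and 42.3 in Het at day 8. At day 14 it was at 45.7, 40.3, 42.6 and 44.4 (WT) and 34.1, 40.9, 49.9 and 43.3 (Het), and at day 21 at 68.9, 39.5, 41.4 and 51.5 (WT) and 56.5, 44.1, 40.9 and 33.1 (Het). It stayed between 33.1 and 68.9 in all 24 libraries, with means of 41.3 ± 4.8 at day 8, 42.6 ± 4.6 at day 14 and 47.0 ± 11.5 at day 21 (SD, n = 8). Its log2 fold change from day 8 to day 21 was 0.18 (95% confidence interval -0.05 to 0.41, adjusted p = 0.174, edgeR). At day 21 the highest library in each genotype was replicate 1.

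*Ctsk*, cathepsin K, cleaves type I collagen in the acid space under the osteoclast. Its level at day 8 was 298, 476, 501 and 412 in WT replicates 1 to 4 and 299, 452, 421 and 390 in Het. At day 14 it was 772, 877, 899 and 810 (WT) and 603, 1013, 874 and 824 (Het), and at day 21 it was 958, 986, 984 and 901 (WT) and 943, 806, 851 and 683 (Het). Every day 14 library was above every day 8 library, whereas days 14 and 21 overlapped. *Ctsk* had a log2 fold change of 1.04 from day 8 to day 14 (SE 0.11, adjusted p = 1.05e-07).

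*Mmp9* encodes a gelatinase of osteoclasts and many other cells. Its level at day 8 was 2.23, 10.7, 8.39 and 7.45 in WT replicates 1 to 4 and 1.71, 3.71, 5.15 and 3.52 in Het. Day 14 levels were 56.4, 38.7, 28.6 and 43.8 (WT) and 23.0, 11.8, 9.23 and 7.38 (Het). At day 21 it was 31.8, 12.7, 10.8 and 19.9 (WT) and 17, 12.9, 7.19 and 5.84 (Het). Day 14 exceeded day 8 in 8 of 8 same-numbered pairs, and day 21 exceeded day 14 in 1 of 8. *Mmp9* had a log2 fold change of 2.17 from day 8 to day 14 (SE 0.33, adjusted p = 1.13e-05), and one of -0.71 from day 14 to day 21 (SE 0.31, adjusted p = 0.13) that did not pass the test, though it did without replicate 1 (-0.73, adjusted p = 0.00866). Within replicate 1 the mean at day 14 was 20.2 times that at day 8, and within replicates 2 to 4 it was 3.58 times.

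**Figure D2:**
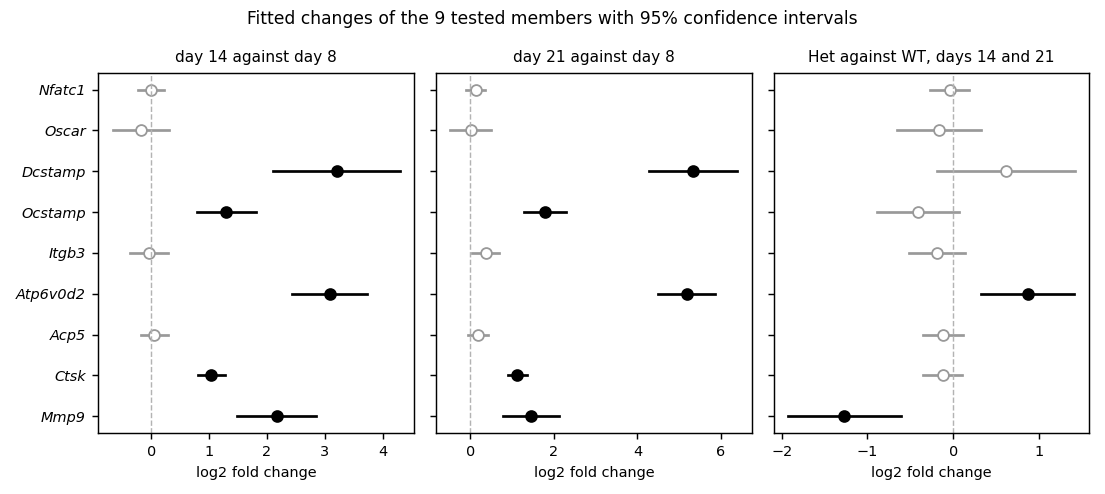
Log2 fold change (x axis) of the 9 tested genes for day 14 against day 8, day 21 against day 8, and Het against WT over days 14 and 21, with 95% confidence intervals. Filled black points passed adjusted p of 0.05 and open grey points did not: 5 genes passed in each comparison of days, and *Atp6v0d2* (higher) and *Mmp9* (lower) passed between genotypes.

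Between genotypes, *Atp6v0d2* was higher and *Mmp9* lower in Het than in WT over days 14 and 21, and the other 7 tested genes did not pass the test. The log2 fold change of *Atp6v0d2* was 0.87 (SE 0.26, adjusted p = 0.0299) and that of *Mmp9* was -1.27 (SE 0.32, adjusted p = 0.0113). Of all tested genes, 15.2% were called in this comparison, 7.15% higher and 8.01% lower, so 2 of 9 was close to the share of all genes. That split was 1461 higher to 1637 lower, against 2327 to 1579 under TMM and 3318 to 966 under total count scaling, and the 3098 calls became 5005 with the replicate number as a block. Neither member passed when replicate 2, 3 or 4 was left out: adjusted p was 0.314 for *Atp6v0d2* and 0.246 for *Mmp9* without replicate 4, 0.318 and 0.107 without replicate 2, and 0.203 and 0.0776 without replicate 3, with the same directions. Without replicate 1, both passed the test, together with *Ocstamp* and *Itgb3*, which were lower in Het. Calls over all tested genes rose in that fit as well (count below). Without the Het day 21 library of replicate 4 alone, *Atp6v0d2* had adjusted p = 0.0529.

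Mean *Mmp9* was lower in Het in both sets of replicates, with 1 library per genotype and day in replicate 1. The summed level of 4 chondrocyte markers at day 14 was 23625 (WT) and 25338 (Het) in replicate 1. Over replicates 2 to 4 that sum averaged 9997 (WT) and 2258 (Het). The part of chondrocytes in the *Mmp9* levels was not tested. For *Mmp9* at day 14 each Het library was below each WT library, with means of 41.9 ± 11.6 (WT) and 12.9 ± 7.0 (Het, SD, n = 4). Of all tested genes, 10.4% did not overlap between genotypes at that day. The difference at day 14 was -1.72 on the log2 scale (SE 0.45, adjusted p = 0.0416), and 3.45% of all tested genes were called (395 higher and 309 lower, against 942 and 339 under TMM scaling, and 704 in all against 1983 with the replicate number as a block). The ratio of Het to WT at day 14 was 0.408 in replicate 1 and 0.256 over replicates 2 to 4. It did not pass the test at day 14 without replicate 2 (adjusted p = 0.418), replicate 3 (adjusted p = 0.164) or replicate 4 (adjusted p = 0.434).

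For *Atp6v0d2* the sets of replicates differed in direction. The ratio of Het to WT over days 14 and 21 was 0.904 in replicate 1 and 1.86 over replicates 2 to 4. At day 14 it was 0.395 in replicate 1 and 3.46 over replicates 2 to 4, and at day 21 it was 1.02 and 1.6. *Atp6v0d2* at day 14 did not pass the test (log2 fold change 1.23, SE 0.38, adjusted p = 0.0704), but did with the replicate number as a block (1.31, adjusted p = 0.0308) or without replicate 1 (1.79, adjusted p = 3.44e-06). At day 21 each Het library was above each WT library (26.9 to 33.4 against 15.6 to 26.4), as 11.7% of all tested genes did not overlap between genotypes at that day, and the test was not passed (adjusted p = 0.535).

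At day 8, edgeR called 0 of 9 genes between genotypes, and 1 (*Mmp9*) had an unadjusted p under 0.05. DESeq2 also called 0, and 0.631% of all tested genes were called (129 genes, or 315 with the replicate number as a block). At day 21, edgeR called 0 of 9, with 1 gene (*Ocstamp*) at an unadjusted p under 0.05 and 0 by DESeq2, beside 0.91% of all tested genes (186, or 955 with the replicate number as a block). For the difference between the genotype effect at days 14 and 21 and that at day 8, edgeR called 0 of 9 with 0 at an unadjusted p under 0.05, DESeq2 called 0, and 0.171% of all tested genes were called (35, or 67 with the replicate number as a block). The fits without replicate 1 called 2 of 9 at day 8 (*Atp6v0d2* higher, *Mmp9* lower) and 4 of 9 at day 21 (*Atp6v0d2* higher, and *Ctsk*, *Ocstamp* and *Itgb3* lower). Calls over all tested genes also moved widely at both days when 1 replicate was left out (counts below). Whether these member calls exceed the share of all tested genes in the same fits was not tested.

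Between replicate 1 and replicates 2 to 4, *Acp5* (0.24, SE 0.09) and *Nfatc1* (0.29, SE 0.08) were higher and *Ctsk* (-0.25, SE 0.09) lower in replicate 1, with adjusted p of 0.0379, 0.00807 and 0.0355 from edgeR. Under TMM scaling neither *Acp5* (0.10, adjusted p = 0.430) nor *Nfatc1* (0.14, adjusted p = 0.153) passed, and *Ctsk* did (-0.39, adjusted p = 0.00282). All calls between these replicates were split 6739 higher to 1389 lower, against 3108 to 3409 under TMM scaling.

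Macrophage markers moved with both time and genotype. The summed level of the 18 macrophage markers ran from 247 to 491 (WT) and from 420 to 1141 (Het) at day 8. At day 14 it ran from 1638 to 5239 (WT) and from 3574 to 8369 (Het), and at day 21 from 7031 to 8177 (WT) and from 9222 to 20528 (Het). All 18 rose from day 8 to day 14, 17 rose from day 14 to day 21, and 16 were higher in Het over days 14 and 21. Of all tested genes, 34.2%, 12.1% and 7.15% were called higher in these comparisons. In the last comparison the median log2 fold change of the markers was 1.03, where the median of all genes was -0.05. The higher level in Het was not present in replicate 1 before day 21. Within replicate 1, the markers that were higher in Het numbered 4 of 18 at day 8, 0 of 18 at day 14 and 17 of 18 at day 21. Over the means of replicates 2 to 4, all 18 were higher in Het at each day. At day 14 the summed level of replicate 1 was 5239 (WT) and 3574 (Het), and the mean of replicates 2 to 4 was 2120 (WT) and 7995 (Het), the same directions as those of *Atp6v0d2*. Of the 16 calls between genotypes, edgeR made 0 without replicate 2, 3 or 4 and 17 without replicate 1. The 17 calls from day 14 to day 21 were 12, 13 and 6 without replicates 2, 3 and 4. The part of these cells in the levels of the osteoclast genes was not tested.

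*Csf1r*, the CSF1 receptor shared by macrophages and osteoclast precursors, and *Tnfrsf11a*, which encodes RANK, rose together, with 47.8 to 67.5 *Tnfrsf11a* counts per 1000 *Csf1r* counts at day 8, 23.7 to 41.3 at day 14 and 35.6 to 43.2 at day 21. Per 1000 *Csf1r* counts, *Atp6v0d2* had 4.91 to 27.3 counts at day 8, 8.03 to 26.5 at day 14 and 27.5 to 75.9 at day 21. In WT replicates 1 to 4 at day 21 it had 75.9, 35.4, 42.6 and 51.2, and in the Het replicates 54.7, 40.5, 41.3 and 27.5, so on this scale the genotypes overlapped. Every day 21 library was above every day 14 library. At day 14 *Mmp9* had 187 to 275 counts per 1000 *Csf1r* counts in WT, above the 15.2 to 77.7 of Het. The genotypes overlapped at day 8 (47.3 to 304 in WT and 40.4 to 52.9 in Het). They also overlapped at day 21 (22.1 to 91.4 in WT and 5.76 to 34.6 in Het). *Csf1r* was itself higher in Het over days 14 and 21 (value below), and the share of all genes without overlap on this scale was not computed.

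**Figure D3:**
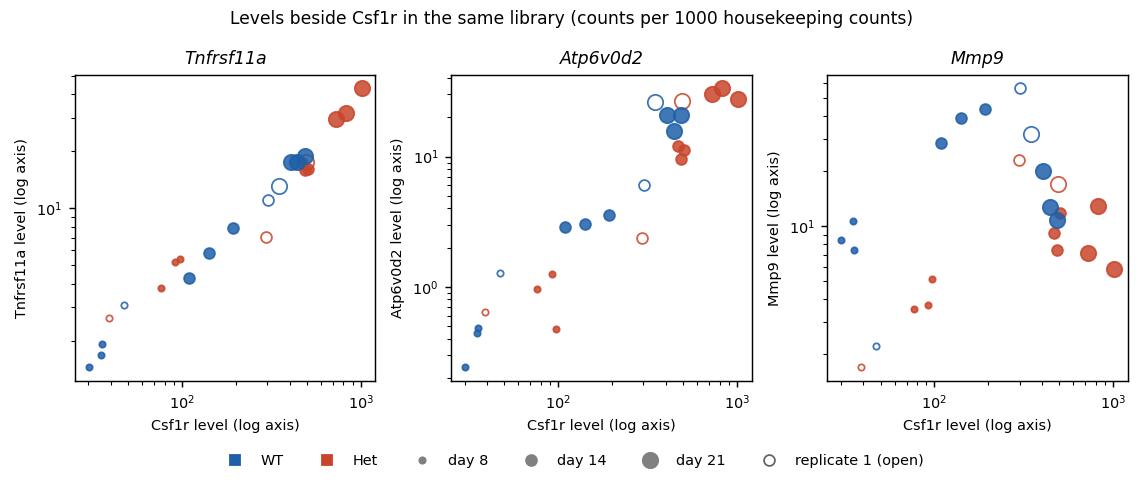
Levels of *Tnfrsf11a*, *Atp6v0d2* and *Mmp9* (y axes, log scale) against that of *Csf1r* in the same library (x axis, log scale), in counts per 1000 housekeeping counts, for 24 libraries. Colour gives genotype, size gives day and open circles mark replicate 1. *Tnfrsf11a* climbs with *Csf1r*, and *Mmp9* reaches its highest levels in WT day 14 libraries. *Atp6v0d2* rises between days 14 and 21, while *Csf1r* moves from 109 to 507 at day 14 to 348 to 1013 at day 21.

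Further genes of the pathway were taken from lists by role. Of all tested genes, 34.2% were called higher from day 8 to day 14 and 12.1% from day 14 to day 21. In Het over days 14 and 21, 7.15% were called higher and 8.01% lower. These shares stand beside every list below. The lists were counted on the housekeeping scale only, and the split of all calls between days depended on the scale. Of the 14 receptors and adaptors of osteoclast precursors, all rose from day 8 to day 14, 13 rose from day 14 to day 21, and 11 were higher in Het over days 14 and 21. Within replicate 1, 4 of the 14 were higher in Het at day 8, 3 at day 14 and 14 at day 21, whereas over the means of replicates 2 to 4 it was 13 at each day. The 11 calls between genotypes became 0, 2 and 0 without replicates 2, 3 and 4 and 13 without replicate 1, and the 13 calls from day 14 to day 21 became 6 without replicate 4. The largest changes from day 8 to day 14 were in *Tyrobp* (3.30, SE 0.28), which encodes the adaptor DAP12, *Fcer1g* (3.23, SE 0.24), the Fc receptor γ chain through which OSCAR signals, and *Blnk* (3.07, SE 0.27), an adaptor of immune receptor signalling. Between genotypes over days 14 and 21 they were in *Siglec15* (1.67, SE 0.42, adjusted p = 0.0131), a receptor that pairs with DAP12, *Csf1r* (1.05, SE 0.20, adjusted p = 0.00276) and *Tyrobp* (1.04, SE 0.24, adjusted p = 0.008). The *Siglec15* level reached 0.733 at most, or 19 counts in a library, and was at 0 in all WT libraries at day 8.

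Of 9 transcription factors that act with or before NFATc1, 5 rose from day 8 to day 14, 7 from day 14 to day 21, and 5 were higher in Het over days 14 and 21, or 2 without replicate 2, 3 or 4 and 8 without replicate 1. The 7 calls from day 14 to day 21 became 2 without replicate 4. *Prdm1*, which encodes Blimp1, a repressor that removes brakes on osteoclast formation, had log2 fold changes of 4.34 (SE 0.49) and 1.62 (SE 0.33) at the 2 steps and 1.69 (SE 0.33) between genotypes. *Spi1* had 2.71 (SE 0.27), 1.11 (SE 0.25) and 1.03 (SE 0.25). *Tfec*, a relative of MITF, had 2.99 (SE 0.29) and 1.11 (SE 0.25) at the steps. *Fos* was higher in Het by 0.55 (SE 0.11). Of the repressors of osteoclast genes, *Irf8* rose by 2.69 (SE 0.26) and *Bcl6* by 0.57 (SE 0.08) from day 8 to day 14. *Irf8*, which holds precursors in the macrophage state, was also higher in Het over days 14 and 21 (1.02, SE 0.23).

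Of 12 genes of acid secretion, 8 rose and 1 (*Slc4a2*) fell from day 8 to day 14, 9 rose from day 14 to day 21, and 4 were higher in Het over days 14 and 21. The calls between genotypes became 0 without replicate 2, 3 or 4, 8 without replicate 1 and 1 without the Het day 21 library of replicate 4. *Slc9b2*, a sodium-proton exchanger of osteoclasts, had 1.40 (SE 0.18) from day 14 to day 21. *Tcirg1*, the pump's a3 subunit, and *Snx10*, a sorting nexin whose loss gives osteopetrosis, were each higher in Het by 0.32 (SE 0.11), with adjusted p of 0.0479 and 0.0475 from edgeR. *Clcn7*, the chloride-proton exchanger that balances the pump, was higher in Het by 0.22 (SE 0.06). *Car2*, the carbonic anhydrase that supplies protons in osteoclasts, stayed at or below 0.579 in all libraries.

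Of 10 genes of attachment and cytoskeleton, 6 rose at each step and 4 were higher in Het over days 14 and 21, led by *Itgb2*, the leukocyte integrin β2 subunit (1.04, SE 0.24), *Rac2* (0.92, SE 0.22) and *Fermt3* (0.88, SE 0.22). These 3 genes are expressed across blood cells. Without replicate 2, 3 or 4 the calls between genotypes became 0, and without replicate 1 they became 6 higher and 2 lower. Of 9 further proteases, 7 rose from day 8 to day 14 and 6 from day 14 to day 21. *Mmp12*, the macrophage elastase, had 3.08 (SE 0.39) and 1.88 (SE 0.35), and *Ctss* had 3.30 (SE 0.31) and 1.26 (SE 0.28). In Het over days 14 and 21, 4 of the 9 were higher, led by *Ctss* (1.08, SE 0.28), *Adam8* (0.93, SE 0.25) and *Ctsb* (0.46, SE 0.10), and 1 (*Mmp2*) was lower. These 5 calls became 8 with the replicate number as a block (5 higher and 3 lower), 9 without replicate 1 and 0 without replicate 2, 3 or 4. *Slc4a2* and *Mmp2* were named after their values were seen.

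The 4 genes of the support that stromal cells give to osteoclasts did not pass the test between genotypes over days 14 and 21. From day 8 to day 14, 1 of the 4 rose and 2 fell, and 3 rose from day 14 to day 21. Of all tested genes, 47.6% and 18% were called at these steps. *Tnfsf11*, which encodes RANKL, rose from day 14 to day 21 (1.59, SE 0.35, adjusted p = 0.00274). *Tnfrsf11b*, which encodes the RANKL decoy OPG, fell from day 8 to day 14 (-1.14, SE 0.34, adjusted p = 0.00836). In replicate 1, 3 of the 4 were called higher than in replicates 2 to 4, beside 39.8% of all tested genes called in either direction. Their mean summed level at day 8 was 1815 (WT) and 1858 (Het) in replicate 1, against 891 and 805 over replicates 2 to 4.

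Compared per kb of exon, the members spanned a wide range. At day 21 *Ctsk* was the highest, at 588 ± 69 per kb (SD, n = 8), followed by *Acp5* at 23.1 ± 5.6. *Nfatc1* at 9.71 ± 0.35, *Atp6v0d2* at 9.28 ± 2.12 and *Itgb3* at 9.05 ± 1.86 came next and differed by less than their spread. *Mmp9* was at 4.17 ± 2.34, *Dcstamp* at 0.795 ± 0.378, *Oscar* at 0.410 ± 0.173 and *Ocstamp* at 0.255 ± 0.086. *Atp6v0d2* reached 7.12% of the level per kb of *Atp6v0d1* at day 21, and the macrophage gene *Csf1r*, at 103 per kb, was above every member but *Ctsk*. At day 8 *Atp6v0d2* was at 0.266 ± 0.145 per kb, below *Oscar* at 0.397 ± 0.102.

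**Figure D4:**
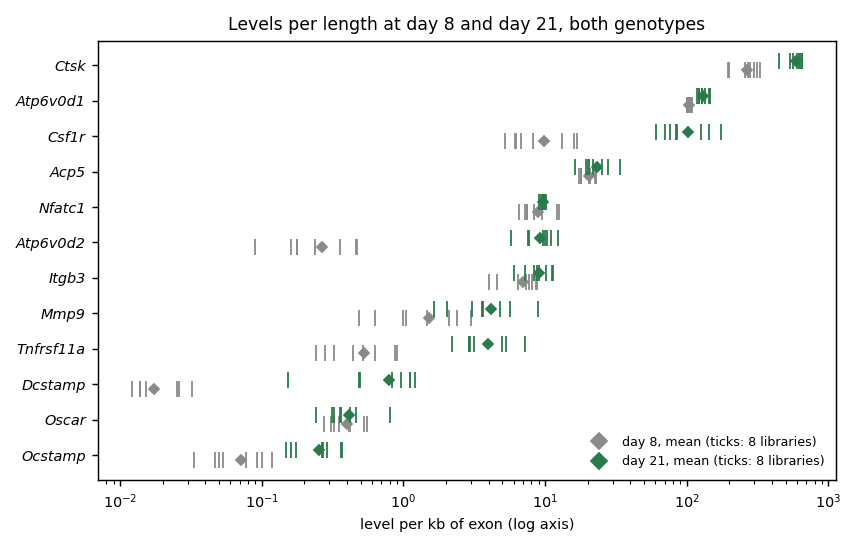
Level per kb of exon (x axis, log scale, counts per 1000 housekeeping counts and kb) of 9 members and 3 genes named beside them, with ticks for 8 libraries and diamonds for means at day 8 (grey) and day 21 (green). *Ctsk*, *Ocstamp*, *Atp6v0d2*, *Dcstamp*, *Csf1r* and *Tnfrsf11a* moved up by more than their spread, and *Acp5*, *Nfatc1*, *Oscar*, *Itgb3* and *Mmp9* overlapped. The Het day 8 replicate 1 library, at 0 for *Dcstamp*, is not drawn.

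Likeness of profile was measured as the root mean square difference of centred log2 levels over the 24 libraries. For *Atp6v0d2* the nearest genes were *Clec7a* (0.44), the β-glucan receptor of macrophages, *Csf2rb2* (0.48) and *Mmp12* (0.51). For *Acp5* the nearest was *6530413G14Rik* (0.10), the gene that overlaps it on the opposite strand, for *Ctsk* it was *Pard6g* (0.13), for *Nfatc1* *Gm20388* (0.10) and for *Itgb3* *Itpr1* (0.19). *Mmp9* (nearest *AI593442*, 0.54) and *Dcstamp* (nearest *Gm30489*, 0.75) had no gene as near. *Ocstamp* was nearest to *Sdc3* (0.33) and *Oscar* to *Batf* (0.30), both with few counts behind the members' own values. For the mean profile of the 9 tested genes, the nearest were *Tmem255b*, *4930592A05Rik*, *Hexa*, *Gas6*, *Cpq*, *Smim14*, *Etfbkmt*, *Pou6f1*, *Itm2b* and *Enpp4*, at 0.17 to 0.20. Among the members themselves, *Acp5* and *Nfatc1* were the nearest pair (0.27) and *Atp6v0d2* and *Oscar* the most distant (2.23). The measure is not scaled to a gene's own spread, so genes that vary little lie near each other whatever their pattern. The SD of the log2 level was 0.288 for *6530413G14Rik* and 0.217 for *Gm20388*, against 2.20 for *Clec7a*.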

How the data were processed

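RNA of 24 OB cultures, 4 per genotype and day, was sequenced from polyA libraries, and the authors deposited raw read counts per gene, with gene length, for each library. The submitters' processing notes name cutadapt 2.5, STAR 2.73a, Subread, featureCounts 1.6.4 and the mm10 build. The strand and multi-mapping settings are not given in the sources used here, and there are no molecular identifiers, so limits from a count of 0 cover counting error only. Of 55335 gene IDs, 54587 matched GENCODE M21, which gave positions. All columns of counts were used.

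Groups were taken from the labels. Counts were scaled to the housekeeping genes, filtered with filterByExpr by group (minimum count 10), and tested with edgeR 4.0.16 (limma 3.58.1, R 4.3.3) by the quasi-likelihood test in 1 fit of 6 group means, with p-values adjusted over all 20434 genes tested and called at 0.05. SE is the size of the log2 fold change divided by the square root of F. Contrasts were Het against WT at each day, over days 14 and 21, the difference of these effects, the steps between days, and replicate 1 against replicates 2 to 4. The scripts were tested on simulated data. Tables were handled in Python 3.11.15 with pandas 2.3.3.

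The members and gene lists were chosen with earlier results of these data known. From each list, up to 3 genes per comparison were named, those with the largest change among those called. One gene each of the repressor and lymphocyte lists is not reported here. Likeness was searched among genes averaging 50 counts or more per library, with a prior count of 2. Promoters came from RefSeq.

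Replicates differed by more than sampling noise (smallest chi-square per degree of freedom 3.68 over 36 pairs). Replicate numbers come from the labels. Deviations from group means correlated by 0.195 to 0.807 between WT and Het libraries of the same number (median 0.464, 12 pairs). Between different numbers they correlated by -0.661 to 0.509 (median -0.074). Among replicates 2 to 4 these medians were 0.419 and 0.339. Numbers were treated as pairing the libraries in the replicate block and in the counts of same-numbered pairs. The main fit leaves the replicate number out, so its SE and adjusted p ignore this pairing. Alternatives were TMM, DESeq2 (1.42.0) size factors, total counts, the DESeq2 Wald test, other filters, the replicate block, replicate 1 as a factor, the compared groups alone and leaving out each replicate. The use of replicates 2 and 3 alone, and leaving out the Het day 21 library of replicate 4, were chosen after seeing the data.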

Additional observations from a re-analysis of the deposited data

Results flagged for a closer look

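Among the 10 genes, 52 groups of 4 libraries were examined for a library far from the other 3 by Dixon's 95% critical value, which chance exceeds in about 5% of groups, and 2 were found. *Acp5* in WT at day 8 was highest in replicate 1, at 45.9, with the others between 35.2 and 36.5. *Dcstamp* in Het at day 21 was lowest in replicate 4, at 0.407, with the others between 2.97 and 3.22.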

How the results depend on the processing

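Over days 14 and 21, the number of members called between genotypes (2 of 9) became 0 to 4 when 1 replicate was left out, with 4 without replicate 1 and 0 without replicate 2, 3 or 4, and 1 without the Het day 21 library of replicate 4. At day 14 the 1 call became 2 under TMM, DESeq2 size factors, total counts, the DESeq2 Wald test, the replicate block, replicate 1 as a factor and replicates 2 and 3 only, 0 without the filter on low counts and in the compared groups only, and 0 to 2 when 1 replicate was left out. At day 8 the 0 calls became 1 with replicates 2 and 3 only and 0 to 2 when 1 replicate was left out. At day 21 the 0 calls became 1 with replicate 1 as a factor, 1 with replicates 2 and 3 only, and 0 to 4 when 1 replicate was left out. From day 14 to day 21 the 2 calls became 4 in the compared groups only. Between replicate 1 and the others the 3 calls became 1 under TMM, DESeq2 size factors and total counts, and 1 to 2 when 1 replicate was left out. The calls from day 8 to day 14 and from day 8 to day 21 stayed within 1.5 times under every alternative. The replicate block (the paired fit) changed 3 calls of members, *Atp6v0d2* between genotypes at day 14 and *Itgb3* at day 21 against days 14 and 8, and no other.

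*Nfatc1* changed sign. From day 8 to day 14 its difference of -0.003 was 0.024 with the replicate block, 0.021 with replicate 1 as a factor, 0.28 with replicates 2 and 3 only, and -0.10 to 0.17 when 1 replicate was left out. From day 8 to day 21 it was -0.062 under TMM, -0.019 under DESeq2 size factors and -0.18 under total counts, scales that moved the median of all genes by -0.21, -0.17 and -0.33. Apart from these 8 reversals, the values of gene and comparison pairs called in any fit gave 415 values on the same side of the threshold, 35 that gained and 23 that lost a call.

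The counts of pathway and macrophage genes without single replicates or with the replicate block were added after seeing the data and are given beside those lists. Counts over all genes moved further. Between genotypes over days 14 and 21, 3098 calls became 8236 without replicate 1 and 239, 366 and 86 without replicates 2, 3 and 4, 5005 with the replicate block, 5365 with replicate 1 as a factor, 5592 with replicates 2 and 3 only and 1889 without the Het day 21 library of replicate 4. At day 14, 704 became 1281 under TMM, 1360 under DESeq2 size factors, 1740 under total counts, 1712 by the Wald test, 263 without the filter, 34 in the compared groups only, 1983 with the block, 2371 with replicate 1 as a factor, 4001 with replicates 2 and 3 only, and 6 to 5727 when 1 replicate was left out. At day 8, 129 became 458 by the Wald test, 315 with the block, 391 with replicate 1 as a factor, 0 in the compared groups only, 2964 with replicates 2 and 3 only, and 0 to 3405 when 1 replicate was left out. At day 21, 186 became 419, 511 and 857 under the other 3 scales, 797 by the Wald test, 92 without the filter, 955 with the block, 1282 with replicate 1 as a factor, 368 in the compared groups only, 2269 with replicates 2 and 3 only, 52 without the Het library of replicate 4, and 4 to 4770 when 1 replicate was left out. For the difference of the genotype effects, 35 became 92 by the Wald test, 67 with the block, 73 with replicate 1 as a factor, 733 with replicates 2 and 3 only, 23 without the Het day 21 library of replicate 4, and 0 to 928 when 1 replicate was left out. From day 14 to day 21, 3680 became 1325 to 6142 when 1 replicate was left out. The cause was not tested. Depth limits *Dcstamp* at day 8, *Oscar*, *Ocstamp* and *Calcr*, which rest on few counts.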

Other observations

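Marker lists of other cell types gave these summed levels, as the lowest to the highest library over all groups. Of 8 OB markers, summing to 17430 to 186390, all rose from day 8 to day 14 and 2 were lower in Het over days 14 and 21. Among all tested genes, 34.2% were called higher in the first comparison and 8.01% lower in the second. The 4 chondrocyte markers summed to 1600 to 35319, and all 4 were higher in replicate 1 than in replicates 2 to 4. From day 8 to day 21, 3 of the 4 fell and 1 rose. Over days 14 and 21 their median log2 fold change between Het and WT was -0.88 (adjusted p of 0.177 to 0.424, edgeR), and the median summed level at day 14 was 11186 in WT and 2510 in Het. The 5 dendritic cell markers ran from 1.32 to 77.1, and both that could be tested rose at each step. The 5 lymphocyte markers ran from 0.146 to 24.9, and 1 of the 2 tested, *Cd4*, was higher in Het over days 14 and 21. The 4 endothelial markers ran from 1.21 to 4.86, with 1 of 3 tested higher in Het over days 14 and 21. The 7 neutrophil, 4 erythroid and 4 adipocyte markers stayed at or below 0.924, 1.07 and 18.2.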
